A study of Homo sapiens with 9 samples.

Results

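*EGR1*, *IER2*, *IER3*, *DUSP1*, *DUSP5*, *DUSP6*, *MYC*, *KLF6* and *ZFP36* are immediate early genes other than the subunits of the transcription factor AP-1. They were taken by gene symbol, as 9 of the 58336 genes listed, and followed across all 9 sequenced libraries of HaCaT cells, a spontaneously immortalized line of human keratinocytes. The study compared cells after low-dose photodynamic therapy (ALA-PDT) with untreated cells. In that treatment cells take up 5-aminolevulinic acid (ALA), turn it into the light-sensitive pigment protoporphyrin IX and are then lit with red light, which generates reactive oxygen. The labels describe 3 treated samples kept for 12 h after the treatment, 3 treated samples kept for 48 h, and 3 controls with no treatment. Treated cells received 0.5 mmol/L ALA and 3 J/cm2 of light at 635 ± 5 nm.

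The library columns are named A1 to A3, B1 to B3 and Nc1 to Nc3. Nc was read as the control, and A and B as the treated groups. The labels tie neither A nor B to a time, so both are called by their letter, and which of them was kept for 12 h and which for 48 h is not stated here. Nothing in the labels says that the samples of a group came from separate cultures, so p-values measure the spread between these samples, which may be technical. In bulk samples of this kind, fewer cells that express a gene and less RNA per cell cannot be told apart.

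Immediate early genes are switched on within minutes by growth factors, stress or damage, with no need for new protein, and many fall again as quickly. In keratinocytes the signal commonly runs from the EGF receptor through the kinase ERK, or through the stress kinases p38 and JNK, to factors such as serum response factor (SRF) and CREB at the genes themselves. *EGR1*, *MYC* and *KLF6* encode transcription factors that carry the signal on, the DUSP genes encode phosphatases that switch the kinases off, and *ZFP36* encodes a protein that speeds the decay of inflammatory mRNAs.

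The promoters of *EGR1*, the member that differed most between A and Nc, and of *DUSP1*, the member with no call in any comparison, are shown to set side by side the sites through which such genes are known to be switched on. Each sequence is the 250 bases before the RefSeq start on GRCh38.p14, at chr5:138465229-138465478 on the plus strand for *EGR1* and at chr5:172771196-172771445 on the minus strand for *DUSP1*. Capitals mark the CArG box, the SRF site, searched as CC, then 6 bases that are each A or T, then GG. They also mark TGACGT, the core of the CREB site, on either strand.
EGR1: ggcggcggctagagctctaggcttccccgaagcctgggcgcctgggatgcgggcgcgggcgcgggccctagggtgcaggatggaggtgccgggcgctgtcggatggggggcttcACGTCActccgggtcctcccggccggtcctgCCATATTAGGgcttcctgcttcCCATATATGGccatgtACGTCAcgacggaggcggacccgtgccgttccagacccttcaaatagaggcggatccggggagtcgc
DUSP1: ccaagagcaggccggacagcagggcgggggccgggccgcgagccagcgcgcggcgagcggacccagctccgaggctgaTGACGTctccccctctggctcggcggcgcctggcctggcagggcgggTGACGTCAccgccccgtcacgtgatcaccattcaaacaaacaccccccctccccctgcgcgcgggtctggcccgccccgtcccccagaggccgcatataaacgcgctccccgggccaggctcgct
The *EGR1* window held 2 CArG boxes, CCATATTAGG from base 105 to base 96 before the start and CCATATATGG from base 83 to base 74, and 2 copies of TGACGT. The *DUSP1* window held no CArG box. It held 3 matches to TGACGT, of which 2 overlap within the full palindrome TGACGTCA from base 125 to base 118 before the start. Of the 6 members with a promoter in the RefSeq table (*EGR1*, *IER2*, *DUSP1*, *DUSP6*, *KLF6* and *ZFP36*), 1 held a CArG box and 2 held TGACGT, where 1.17% and 7.09% of the 34788 promoters in the table did. A further 5 motifs were searched on both strands. TGACGTCA, which contains TGACGT, was in 1 of the 6 (1.64% of all promoters), GCGNGGGCG, the EGR1 site, in 2 (8.41%), CACGTG, the E-box bound by MYC, in 2 (6.31%), CCGGAAG, an ETS site, in 1 (8.5%) and TGANTCA, the AP-1 site, in 0 (6.59%). *IER2*, *DUSP6*, *KLF6* and *ZFP36*, all called higher in A than in Nc, held neither a CArG box nor TGACGT in this window. A match describes the letters only, and its bearing on the levels was not tested. *IER3*, *DUSP5* and *MYC* are named without a sequence.

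The libraries held between 15337296 and 18028419 counts, and all 9 members passed the filter on low counts, which kept 13845 genes. Basal keratinocyte markers summed to 50259 to 60391 counts in A, 40447 to 44430 in B and 36920 to 47476 in Nc. General epithelial markers summed to 57845 to 63347 counts in A, 46543 to 49425 in B and 60855 to 62210 in Nc. *KRT5* had at least 5016 counts in each library, whereas *KRT14*, a defining marker of basal keratinocytes, had at most 20. Red cell markers summed to 7 to 1245 counts in A, 4 to 8413 in B and 3 to 7479 in Nc, and the beta-globin gene *HBB* had over 100 counts in 5 libraries, A1, A2, B3, Nc1 and Nc2. Immune markers summed to 53 to 69 counts in A, 62 to 228 in B and 23 to 187 in Nc, and endothelial markers, mostly *CDH5*, to 27 to 52 in A, 197 to 246 in B and 48 to 73 in Nc. Fibroblast markers summed to 27 to 195 counts in A, 38 to 65 in B and 48 to 70 in Nc. Melanocyte markers summed to 109 to 160 counts in A, 124 to 151 in B and 143 to 208 in Nc, with *TYR* at 0 in all 9 libraries. B2 and B3 had 21873 and 21892 genes with a count, against 18714 to 20020 in the other 7. Mitochondrial genes took 6.80 to 7.51% of counts in A, below every library of B (8.003 to 9.72%) and of Nc (7.92 to 8.65%). The part of these differences in the results was not tested, except that results were also computed without the 5 libraries with *HBB* counts.

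In group A, 8 of the 9 members were higher than in the controls, where 1.76% of all genes tested were called higher. *EGR1* led with a 7.80-fold difference, and the other 7 were higher by 0.53 to 0.85 on the log2 scale. *DUSP1* was the member that did not pass. A call here means an adjusted p under 0.05 in edgeR's quasi-likelihood test on the counts, with Benjamini-Hochberg adjustment over all 13845 genes. The median log2 fold change of the 9 was 0.71, against 0.01 for all genes tested. Levels are given as FPKM, the authors' fragments per kilobase of gene, scaled to each library, and fold changes come from the counts.

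**Figure D1:**
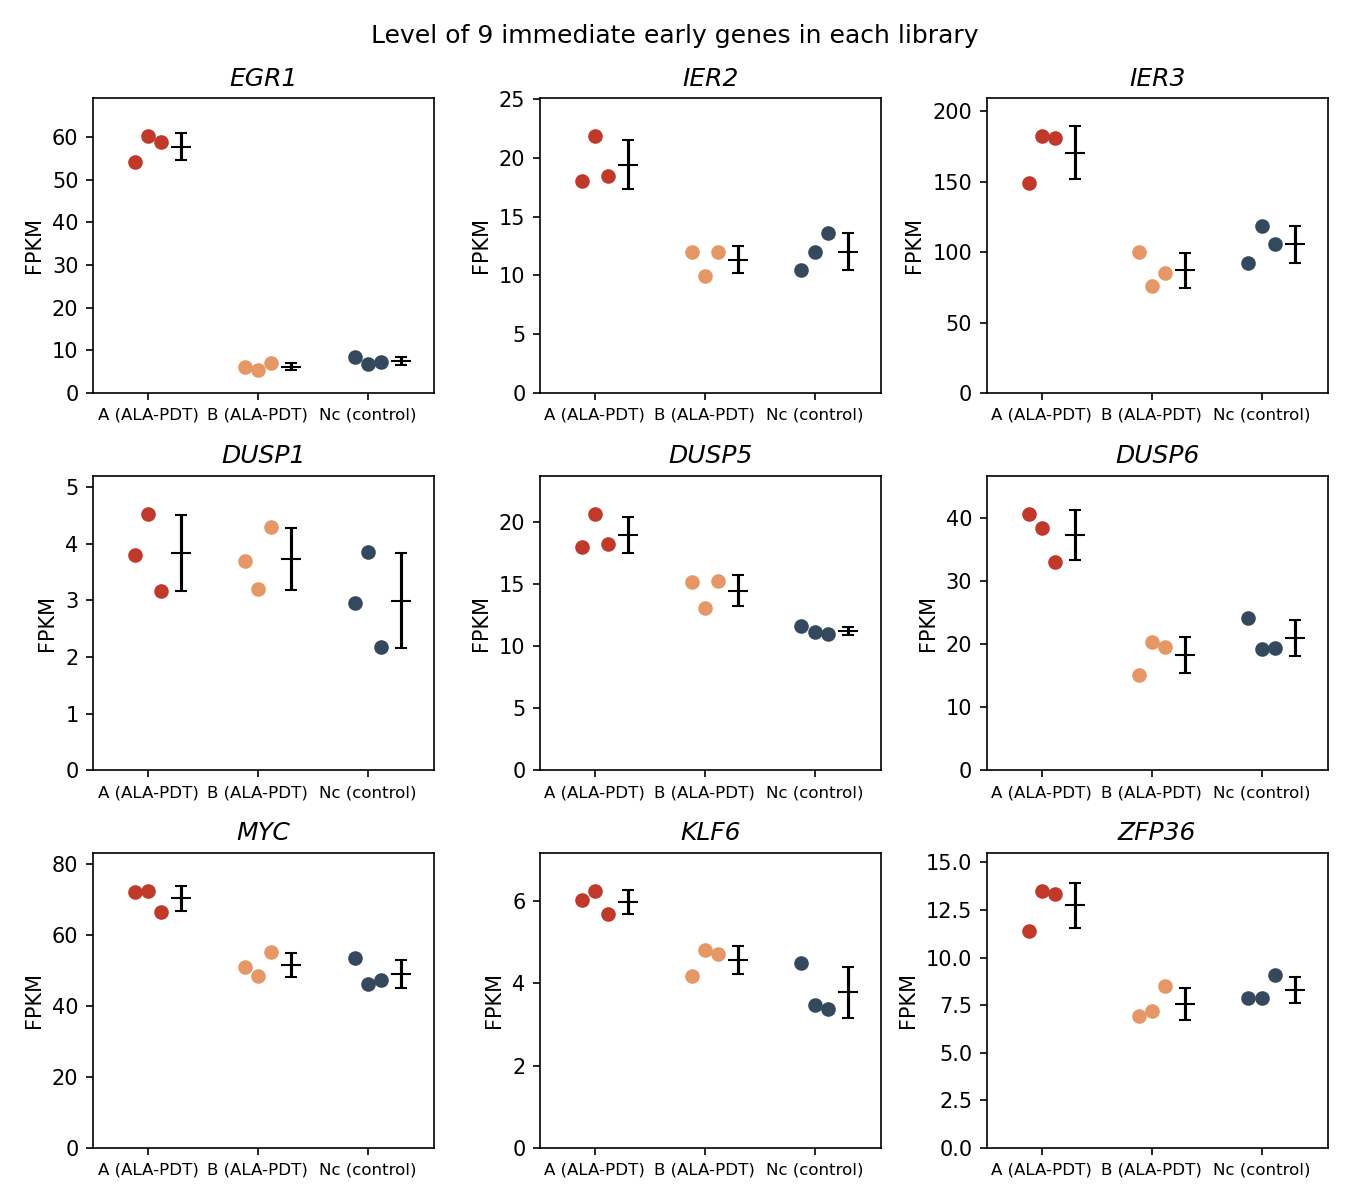
FPKM (vertical axis, linear, from 0) of each of the 9 members in the 3 libraries of groups A, B and Nc (points), with the group mean and SD (black bar and whiskers). The A points lie above all B and Nc points in every panel except that of *DUSP1*, and *EGR1* has the widest gap, with a mean of 57.7 FPKM in A, 6.16 in B and 7.47 in Nc.

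Among the transcription factors, *EGR1* (ENSG00000120738, GRCh38 chr5:138465490-138469315, plus strand) encodes a zinc finger protein that couples ERK signals to growth and repair genes. Its level was 54.0, 60.1 and 58.9 FPKM in A1 to A3, 6.10, 5.44 and 6.93 in B1 to B3, and 8.47, 6.69 and 7.24 in Nc1 to Nc3. All 3 A libraries stood far above the other 6, and the ranges of B and Nc overlapped. The underlying counts were 2909, 2785 and 2653 in A, 310, 309 and 414 in B, and 473, 326 and 381 in Nc. The log2 fold change of A against Nc was 2.96 ± 0.13 (SE, n = 3 each, adjusted p = 2.16e-09 in edgeR's test). This was the smallest p among the genes tested and the third largest log2 fold change. Between libraries of the same number, *EGR1* was 6.44, 9.09 and 8.20 times higher in A than in Nc in CPM (counts scaled to the size of the library), the last of these from A3 and Nc3, with 7 and 2 *HBB* counts. Without the 5 libraries with *HBB* counts the log2 fold change was 3.04 (adjusted p = 5.09e-14 in edgeR's test), with 1 library left in A and in Nc, each assumed to vary like the B libraries.

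*MYC* (ENSG00000136997, GRCh38 chr8:127735434-127741434, plus strand) encodes a factor that drives ribosome production and cell growth. It was at 72.2, 72.3 and 66.4 FPKM in A, 50.9, 48.3 and 55.1 in B, and 53.6, 46.3 and 47.3 in Nc. The A libraries were above all others by a smaller margin than for *EGR1*, and B and Nc overlapped. A was higher than Nc by 0.53 ± 0.12 on the log2 scale (SE, adjusted p = 0.0209 in edgeR's test). The call was lost without Nc2, Nc3, A2 or A3, at adjusted p = 0.0634, 0.118, 0.132 and 0.0665. It was also lost with library totals in place of TMM scaling (0.0652) and with the replicate number as a block over all 9 libraries (0.0594).

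*KLF6* (ENSG00000067082, GRCh38 chr10:3775996-3785281, minus strand) encodes a Krüppel-like zinc finger factor that is induced by injury. Its libraries gave 6.03, 6.23 and 5.67 FPKM in A, 4.18, 4.81 and 4.72 in B, and 4.49, 3.47 and 3.38 in Nc. The A range did not meet that of Nc, while B lay between them and overlapped Nc through Nc1. The difference of A from Nc was 0.67 ± 0.13 on the log2 scale (SE, adjusted p = 0.0121 in edgeR's test), with adjusted p = 0.0890 without Nc3, 0.0818 without A2 and 0.0612 with library totals.

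*IER2* (ENSG00000160888, GRCh38 chr19:13150415-13154908, plus strand), which encodes a small nuclear protein, was at 18.0, 21.8 and 18.4 FPKM in A, 12.0, 10.00 and 12.0 in B, and 10.5, 12.0 and 13.6 in Nc. *IER3* (ENSG00000137331, GRCh38 chr6:30743199-30744554, minus strand), which encodes a stress-induced protein that acts on ERK signalling and cell survival, was at 148.9, 182.2 and 181.3 FPKM in A, 100.2, 75.9 and 85.0 in B, and 92.1, 118.4 and 105.9 in Nc. Both genes had every A library above every Nc library, and B overlapped Nc in both. *IER2* was higher in A than in Nc by 0.71 ± 0.13 on the log2 scale (SE, adjusted p = 0.00923 in edgeR's test, and 0.0801 without A2). For *IER3* the difference was 0.71 ± 0.14 (SE, adjusted p = 0.0133 in edgeR's test), with adjusted p = 0.0683, 0.101 and 0.0784 without Nc3, A2 and A3.

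The 3 phosphatases differ in the kinases they act on or in where in the cell they act. *DUSP6* (ENSG00000139318, GRCh38 chr12:89347232-89353271, minus strand) acts on ERK in the cytoplasm and is itself transcribed in response to ERK. It gave 40.6, 38.3 and 33.0 FPKM in A, 15.1, 20.3 and 19.5 in B, and 24.2, 19.3 and 19.4 in Nc. A stood above both other groups, which overlapped, and the difference from Nc was 0.85 ± 0.14 on the log2 scale (SE, adjusted p = 0.00467 in edgeR's test). *DUSP5* (ENSG00000138166, GRCh38 chr10:110497838-110511544, plus strand) acts on ERK in the nucleus. Its levels were 17.9, 20.6 and 18.2 FPKM in A, 15.1, 13.0 and 15.2 in B, and 11.6, 11.1 and 11.0 in Nc. Alone among the 9 members, it had 3 groups whose ranges were all separate. *DUSP5* was higher in A than in Nc by 0.77 ± 0.12 on the log2 scale (SE, adjusted p = 0.00242 in edgeR's test).

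*DUSP1* (ENSG00000120129, GRCh38 chr5:172768090-172771195, minus strand) encodes a nuclear phosphatase that turns off p38 and JNK as well as ERK. Its levels were 3.81, 4.53 and 3.17 FPKM in A, 3.70, 3.20 and 4.29 in B, and 2.95, 3.86 and 2.19 in Nc. All 3 groups overlapped. The log2 fold change of A against Nc was 0.37 ± 0.21 (SE, adjusted p = 0.310 in edgeR's test). *DUSP1* had 132, 135 and 92 counts in A and 106, 121 and 74 in Nc, where counting alone gives a coefficient of variation of 9.14% in A and 9.98% in Nc, against observed values of 17.6% and 28.0%. An approximate 95% interval of its fold, 0.968 to 1.73, held 1 as well as the folds of 6 of the members that were called. It was computed from the standard error and the normal distribution, so it is narrower than the F test would give.

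*ZFP36* (ENSG00000128016, GRCh38 chr19:39406813-39409412, plus strand) encodes tristetraprolin, which binds AU-rich elements in mRNAs of cytokines and growth genes. It gave 11.4, 13.5 and 13.3 FPKM in A, 6.94, 7.17 and 8.50 in B, and 7.88, 7.89 and 9.11 in Nc. The A libraries were above the rest, and B and Nc overlapped. The difference of A from Nc was 0.63 ± 0.14 on the log2 scale (SE, adjusted p = 0.0202 in edgeR's test). It was lost without Nc1, Nc2, Nc3, A2 or A3, at adjusted p = 0.0543, 0.0657, 0.0545, 0.133 and 0.118, and with library totals at 0.0638.

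All A libraries lay above all Nc libraries for 8 of the 9 members, where 13.8% of all genes tested did. The members called were 3 without A2, 4 without Nc3 and 5 without A3. Among all genes tested, those called higher in these 3 fits were 69 of 14229, 75 of 14223 and 79 of 14246. With all 9 libraries they were 244 of 13845. Without the 5 libraries with *HBB* counts, which left 1 library in A and in Nc, the members' log2 fold changes ran from 0.45 (*IER2*) to 3.04 (*EGR1*). Same-numbered A and Nc libraries deviated alike from their group means, though no label pairs them. A fit to these 6 libraries with the number as a block was chosen after that was seen. It called 8 members, where 16.5% of the 13216 genes tested were called higher. In that fit *EGR1* had adjusted p = 7.63e-11 and *DUSP1* 0.0690 in edgeR's test. *IER2*, *IER3*, *DUSP1* and *DUSP6* each overlap an antisense gene with at most 12 counts in any library, and since no strand setting is stated their reads cannot be told apart from those of the partner.

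**Figure D2:**
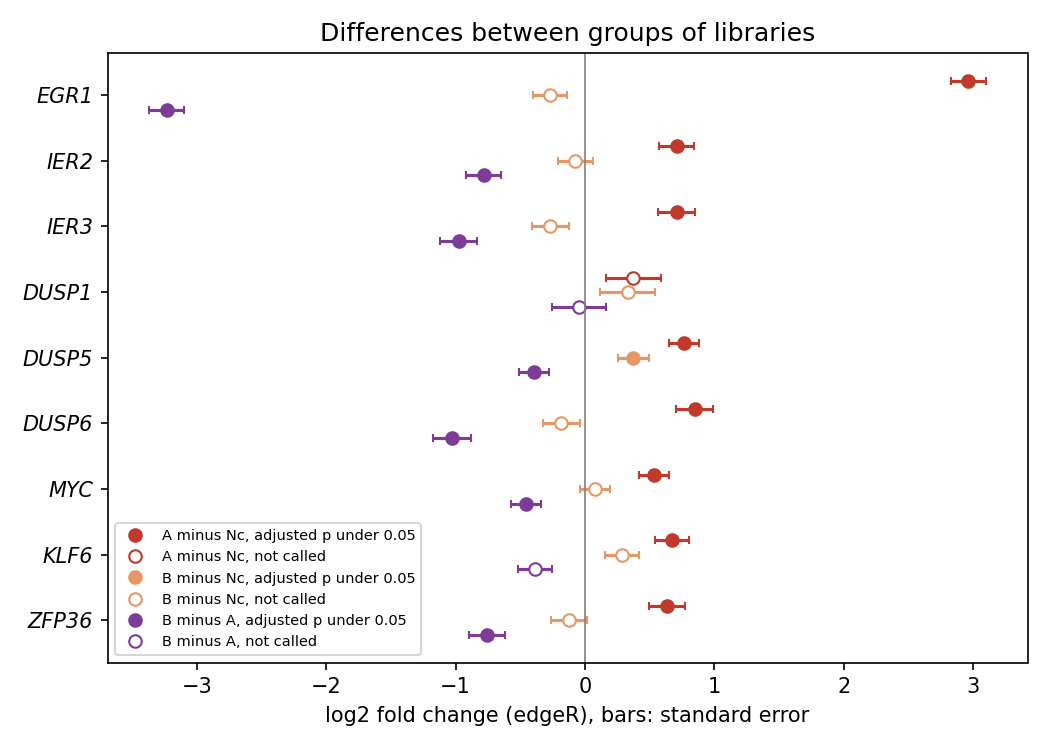
Log2 fold change (horizontal axis) of each member (rows) with its standard error, for A minus Nc, B minus Nc and B minus A, from edgeR's fit to the counts, with filled points for an adjusted p under 0.05. For A minus Nc 8 of 9 points are filled, for B minus Nc 1, and for B minus A 7, all to the left of 0.

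In group B the members sat nearer the controls. *DUSP5* was the 1 member called, higher than in Nc by 0.37 ± 0.12 on the log2 scale (SE, adjusted p = 0.0447 in edgeR's test), where 6.12% of all genes tested were called higher and 7.24% lower. It was also the 1 member with all B libraries above all Nc libraries, where 16.3% of genes had that. The call was lost without Nc1, Nc2, Nc3, A3, B1 or B3, at adjusted p between 0.0660 and 0.182, and it was made in 5 of 17 alternatives. For *EGR1* the log2 fold change was −0.27 (adjusted p = 0.183), for *IER3* −0.27 (0.227) and for *DUSP6* −0.18 (0.432), all in edgeR's test. *KLF6* had 0.28 (adjusted p = 0.168) and *DUSP1* 0.33 (0.331), with *MYC* at 0.08 (0.695), *IER2* at −0.08 (0.754) and *ZFP36* at −0.13 (0.590). None of these 8 passed, and 2 of the 9 members had an unadjusted p under 0.05. A and B were set against the same 3 control libraries, so their values share whatever is particular to those.

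Set directly against A, group B was lower for 7 members, where 9.25% of all genes tested were called lower. *EGR1* averaged 6.16 ± 0.748 FPKM in B and 57.7 ± 3.21 in A (SD, n = 3 each), a log2 fold change of −3.23 (adjusted p = 6.85e-10 in edgeR's test). *DUSP6* averaged 18.3 ± 2.84 FPKM in B and 37.3 ± 3.91 in A (−1.03 on the log2 scale, adjusted p = 0.000224 in edgeR's test). *IER3* averaged 87.0 ± 12.2 FPKM in B and 170.8 ± 19.0 in A (−0.98, adjusted p = 0.000324 in edgeR's test). These were the members furthest apart between the treated groups. *IER2* differed by −0.78 (adjusted p = 0.00107), *ZFP36* by −0.76 (0.00159), *MYC* by −0.45 (0.0141) and *DUSP5* by −0.39 (0.0279) in edgeR's test. *DUSP5* was not called without A2, A3, B2 or B3 (adjusted p = 0.0695 to 0.130), with library totals (0.105), with no filter (0.0785) or with the replicate block (0.0540), and it was called in 9 of 17 alternatives. *MYC* was not called without A2 or B2 (0.0538 and 0.0699) or with library totals (0.0584). *KLF6* had a log2 fold change of −0.39 at adjusted p = 0.0503, and *DUSP1* one of −0.04 at 0.906. *KLF6* was called in only 2 of 17 alternatives, without Nc1 (0.0189) and with the B and A libraries alone (0.0367). Its adjusted p was 0.211 with library totals, 0.162 without B1 and 0.140 without A2 in edgeR's test. All B libraries lay below all A libraries for 8 members, where 17.1% of genes did, and the median log2 fold change was −0.76 for the members and −0.02 for all genes.

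With the 6 treated libraries as 1 group against Nc, 3 members were called higher, where 1.39% of genes were. *EGR1* had a log2 fold change of 1.35 (adjusted p = 1.51e-05), *DUSP5* 0.57 (0.0170) and *KLF6* 0.48 (0.0344) in edgeR's test. The *EGR1* value averages A, which lay above Nc, and B, which overlapped it. *DUSP5* was not called without Nc3 or A2 (adjusted p = 0.0891 and 0.0644), nor *KLF6* without Nc2, Nc3, A2, A3 or B3 (0.0671 to 0.148), with library totals (0.0931) or with limma (0.0702). An exact two-sided permutation test of log2 CPM over 84 splits of the 6 treated and 3 control libraries gave p = 0.0238 for *DUSP5*, the smallest possible, 0.0476 for *KLF6* and 0.0714 for *MYC*. *DUSP1* gave 0.143 and the other 5, with *EGR1* at 0.452, between 0.357 and 0.500 in the same exact test. Adjusted over these 9 exact tests, *DUSP5*, *KLF6* and *MYC* had p = 0.214 and none passed. With 0.0238 as the smallest possible p, the adjusted tests could hardly pass, so they decide nothing about the members.

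**Figure D3:**
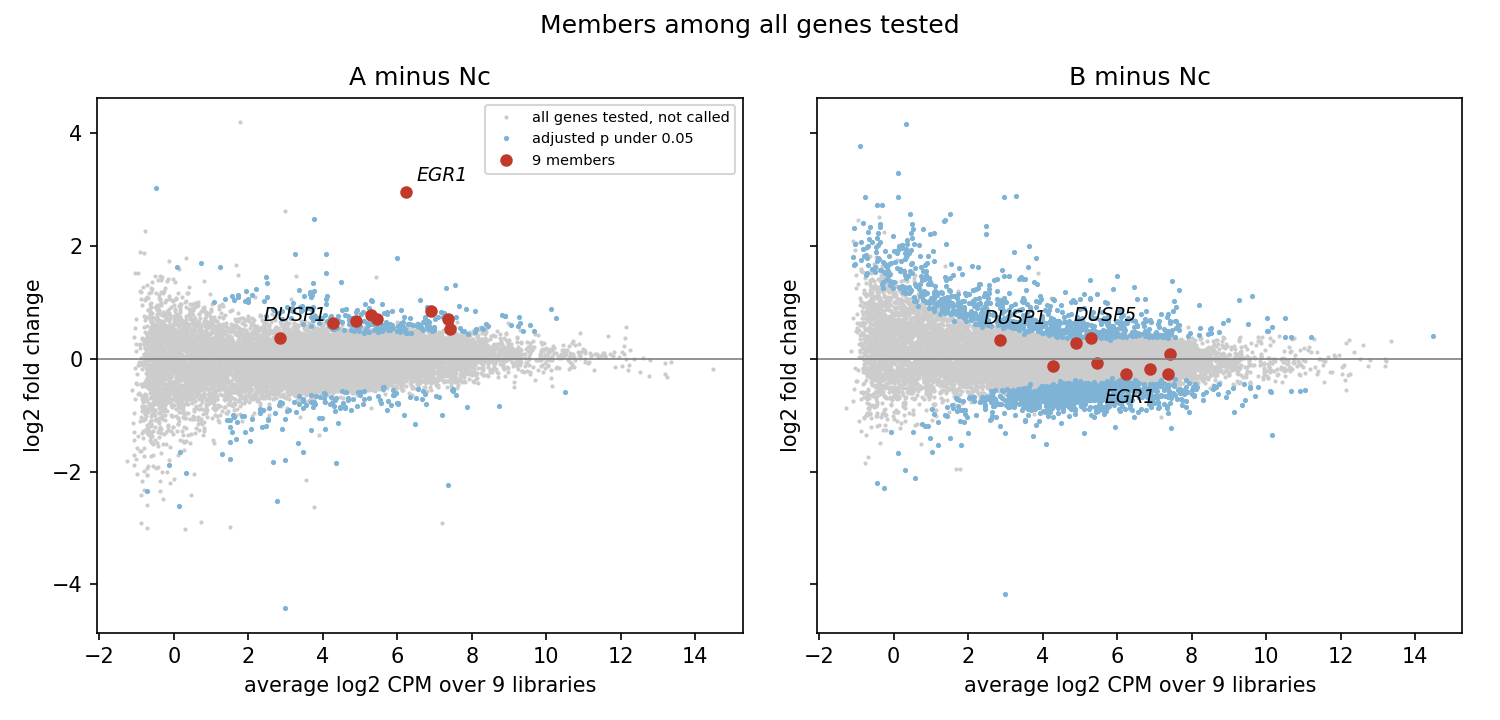
Log2 fold change (vertical axis) against average log2 CPM (horizontal axis) for the 13845 genes tested, for A minus Nc (left) and B minus Nc (right), with called genes in blue and the 9 members in red. *EGR1*, at a log2 fold change of 2.96, stands apart from genes of similar level on the left, and at −0.27 it lies among the genes not called on the right.

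The order of the levels differed between groups mainly through *EGR1*. By mean FPKM, which is per length and so can be set between genes, *IER3* was the highest member in every group and *MYC* the next, at 170.8 and 70.3 FPKM in A, 87.0 and 51.4 in B, and 105.5 and 49.0 in Nc. *EGR1* ranked 3 among the 9 in A and 7 in both B and Nc. *KLF6* and *DUSP1* were the lowest in each group, and their ranges overlapped in B and Nc. Other neighbours whose ranges overlapped were *IER2* and *DUSP5* in A and Nc, *DUSP6* and *DUSP5* in B, and *ZFP36* and *EGR1* in Nc. The 9 levels summed to 396.9 ± 23.3 FPKM in A, 204.5 ± 14.2 in B and 221.2 ± 6.89 in Nc (SD, n = 3 each). *EGR1* made up 14.5 ± 0.233% of that sum in A, 3.01 ± 0.239% in B and 3.39 ± 0.507% in Nc.

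Across the 9 libraries the 36 pairs of members had Pearson correlations of log2 CPM between 0.21 and 0.95, with a median of 0.81. These describe libraries that share group and preparation. For each member the best matches were taken from 9728 genes with at least 100 counts on average. With so many genes and only 9 libraries in 3 groups, high values were to be had, and shared regulation was not tested. *IL1RL1*, which encodes the IL-33 receptor, had a pattern close to that of *EGR1* (r = 0.976 over 9 libraries). *IL1RL1* was at 5.24 ± 0.828 FPKM in A, 0.853 ± 0.201 in B and 0.949 ± 0.103 in Nc (SD, n = 3 each), high in A and with B near Nc, as *EGR1* was. *DUSP5* was most like *JUN* (r = 0.983) and *BMP1* (0.980), *MYC* like *BCAR3* (0.989) and *TRIB1* (0.984), and *IER3* like *CDC20* (0.998) and *MAP2K3* (0.994). *DUSP6* was most like *MICAL2* (0.972) and *KIRREL1* (0.968), and *ZFP36* like *CSF2* (0.976) and *WDR77* (0.973). For *IER2* the nearest genes were *RHBDF2* (0.984) and *FAM53B* (0.983), for *KLF6* *HAS3* (0.965) and *EWSR1* (0.962), and for *DUSP1* *PTAFR* (0.958) and *UBE2G2* (0.940).

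The pathway around the members was followed in 13 lists with 130 genes tested. Of these, 20 were higher and 3 lower in A against Nc, 20 higher and 9 lower in B against Nc, and 14 higher and 33 lower in B against A. Among all genes tested, 1.76% were called higher and 0.953% lower in A against Nc, 6.12% and 7.24% in B against Nc, and 8.79% and 9.25% in B against A. Among the AP-1 subunits, which pair to bind DNA and are induced alongside the members, *FOS*, *FOSB*, *FOSL1* and *JUN*, 4 of 8, were higher in A. *FOS* was at 5.33 ± 0.962 FPKM in A and 1.49 ± 0.149 in Nc (log2 fold change 1.85, adjusted p = 6.38e-05 in edgeR's test). *FOSL1* averaged 177.6 ± 16.9 FPKM in A, 46.1 ± 6.65 in B and 72.2 ± 1.83 in Nc, and was called higher in A and lower in B. In B, *ATF3*, *FOSB*, *FOSL2*, *JUN* and *JUND* were higher.

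Of 25 other immediate early genes, 5 were higher in A. They were *NR4A1*, which encodes a nuclear receptor, *CCN1* and *CCN2*, which encode secreted matricellular proteins, *PHLDA1*, and *TRIB1*, which encodes a pseudokinase. *CCN1* was at 57.8 ± 8.53 FPKM in A, 32.2 ± 1.03 in B and 28.2 ± 1.95 in Nc, again with A above the other groups. *CCN2* was at 2.16 ± 0.588 FPKM in A, 4.02 ± 0.904 in B and 0.790 ± 0.107 in Nc, and was called higher in both treated groups. In B, *CCN2*, *EGR2*, *KLF4*, *BTG1* and *BTG2* were higher and *PHLDA1* was lower. *NAB2*, which encodes a repressor that binds EGR1 protein, was at 23.3 ± 3.50 FPKM in A, 15.6 ± 2.51 in B and 17.2 ± 3.08 in Nc. It was lower in B than in A (log2 fold change −0.58, adjusted p = 0.0199 in edgeR's test) and did not pass in A against Nc (0.45, adjusted p = 0.122).

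**Figure D4:**
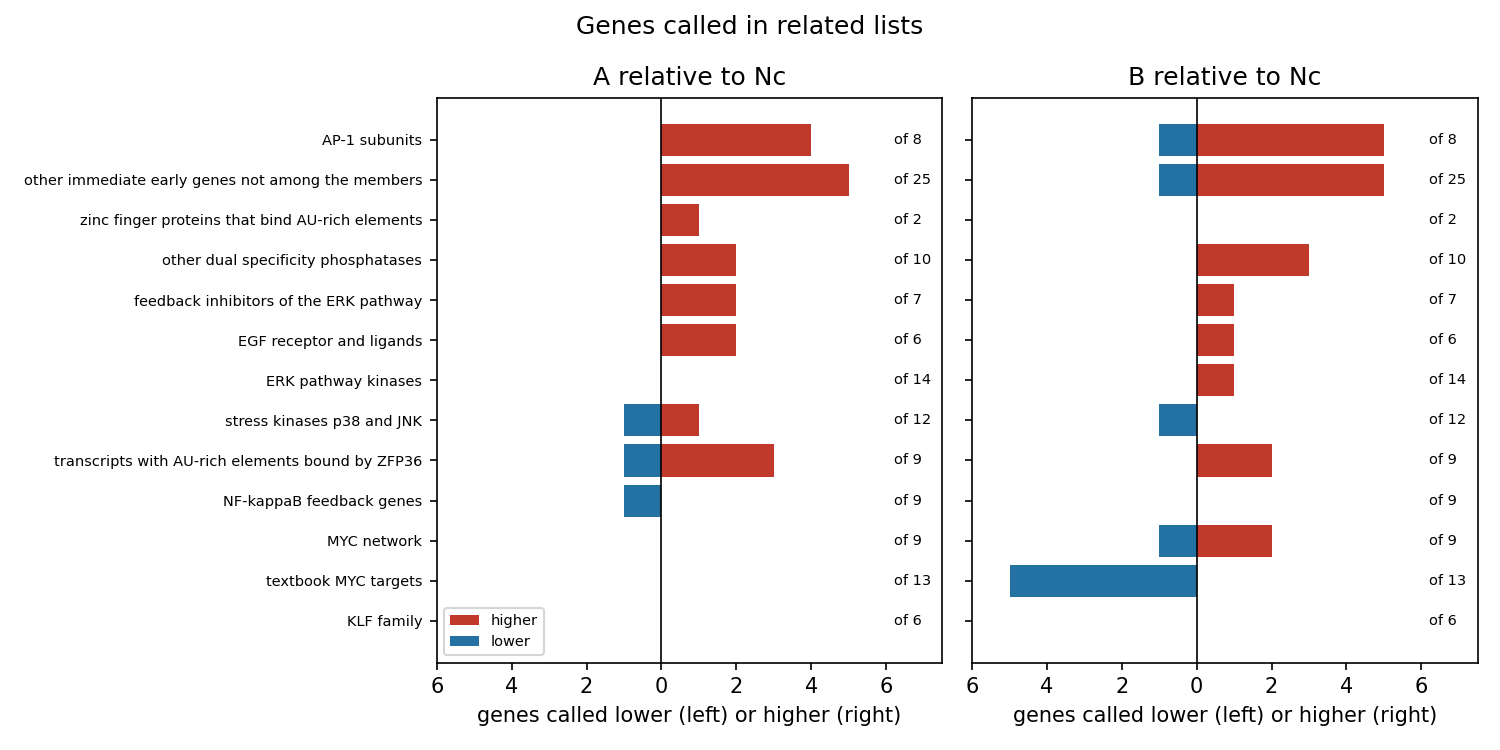
Number of genes called lower (left of 0) and higher (right of 0) in each of the 13 gene lists (rows), out of the number tested, for A relative to Nc and B relative to Nc. AP-1 subunits and other immediate early genes have 4 and 5 genes higher in A, and the textbook MYC targets have 5 lower in B.

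Among 10 other dual specificity phosphatases, which differ in whether they act on ERK, p38 or JNK, *DUSP2* and *DUSP4* were higher in A, and *DUSP4*, *DUSP8* and *DUSP14* were higher in B. *DUSP8* was low throughout, at 0.102 ± 0.0618 FPKM in A, 0.455 ± 0.0715 in B and 0.111 ± 0.0319 in Nc. Of 7 feedback inhibitors, *SPRY2*, which blocks receptor signalling to ERK, was at 3.02 ± 0.0729 FPKM in A, 1.43 ± 0.438 in B and 1.65 ± 0.131 in Nc, with a log2 fold change of 0.89 in A against Nc (adjusted p = 0.0254 in edgeR's test). *ERRFI1*, which encodes an inhibitor of the EGF receptor, was higher in both A and B. Of the 6 genes tested for the EGF receptor and its ligands, *AREG* was higher in A, and *HBEGF* was higher in both A and B. Among 14 genes of the ERK pathway kinases, edgeR called 0 in A against Nc, where 2 had an unadjusted p under 0.05, DESeq2 called 1 and limma called 0. In B, edgeR called 1 of the 14, *MAP2K1*, higher, where 6.12% of all genes tested were called higher. Of 12 stress kinase genes, *MAP2K3* was higher and *MAP2K6* lower in A. *MAP2K6* was low throughout, at 0.176 ± 0.0635 FPKM in A and 0.415 ± 0.105 in Nc. *MAP2K4* was lower in B, where 7.24% of all genes tested were called lower.

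*ZFP36L1*, which encodes a close relative of tristetraprolin, was at 31.0 ± 1.53 FPKM in A, 20.9 ± 1.30 in B and 21.3 ± 2.14 in Nc, and was higher in A (0.56 on the log2 scale, adjusted p = 0.0178 in edgeR's test). Its relative *ZFP36L2* was not called in any of these comparisons. Of 9 AU-rich mRNAs tested, *CSF2*, *PLAUR* and *VEGFA* were higher in A and the chemokine gene *CCL2* was lower. *CCL2* was at 17.7 ± 0.362 FPKM in A, 146.3 ± 11.9 in B and 84.5 ± 15.6 in Nc, and was called higher in B. Of 9 NF-kappaB feedback genes, *BIRC3* was lower in A. In B edgeR called 0 of them, with 2 at an unadjusted p under 0.05 and 0 called by DESeq2 or limma.

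In A against Nc, where *MYC* was higher, edgeR called 0 of 9 genes of the MYC network, with 1 at an unadjusted p under 0.05 and 0 called by DESeq2 or limma. It called 0 of 13 textbook MYC targets there, with 4 at an unadjusted p under 0.05, 1 called by DESeq2 and 0 by limma. In B, where *MYC* was not called, the targets *NCL*, *NPM1*, *NOP58*, *ODC1* and *POLR1B* were lower than in Nc. *NCL*, which encodes nucleolin, was at 70.8 ± 10.7 FPKM in B and 118.5 ± 15.2 in Nc. In the network, *MXI1*, which encodes an antagonist of MYC, was at 6.56 ± 1.37 FPKM in B and 3.17 ± 0.517 in Nc and was called higher, as was *MNT*, while *MGA* was lower. Of 6 other KLF genes, edgeR called 0 in A and 0 in B against Nc, with 3 at an unadjusted p under 0.05 in each and 0 called by DESeq2 or limma.

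Between the treated groups, most of the 47 calls in these lists were lower in B than in A. The AP-1 subunits had 2 higher and 3 lower in B, with *FOSL1* at −1.95 on the log2 scale (adjusted p = 2.31e-07 in edgeR's test) and *ATF3* at 1.61 (1.42e-05). Of the other immediate early genes 3 were higher and 5 lower, led by *PHLDA1* at −1.10 (adjusted p = 1.42e-05 in edgeR's test). *DUSP2*, which acts on ERK in the nucleus, averaged 3.93 ± 1.09 FPKM in B and 8.43 ± 1.75 in A, and 1 other phosphatase was higher and 1 lower. *SPRY2* was the 1 feedback inhibitor called, lower in B by 1.07 on the log2 scale. Of the AU-rich mRNAs 2 were higher and 4 lower. *CSF2*, which encodes the cytokine GM-CSF, averaged 15.3 ± 2.70 FPKM in B and 50.2 ± 10.8 in A (SD, n = 3 each), and *CCL2* was higher in B by 3.04 on the log2 scale (adjusted p = 4.21e-09 in edgeR's test). ERK pathway kinases had 4 lower, stress kinases 2 lower, EGF receptor ligands 1 lower (*AREG*), NF-kappaB feedback genes 2 higher and 1 lower, and KLF genes 1 lower (*KLF16*). In the MYC network 3 were higher and 2 lower, and among the MYC targets 1 was higher (*LDHA*) and 6 lower, led by *CAD* at −0.72.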

How the data were processed

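Per the labels' protocols, total RNA of 9 HaCaT samples gave paired reads of 150 bases. GRCh38, HISAT2, StringTie and FastQC come from the submitters' processing notes. The strand setting is not given in the sources used here. The authors deposited whole-number counts per gene, not normalized, and FPKM, which equalled the count divided by gene length and by a constant of each library, 0.936 to 1.07 times its total. No label spells out the column letters. Nc, which can shorten a control's name, was read as control, and the 6 columns A and B as the 6 ALA-PDT samples, with no time assigned. The members and lists were chosen with earlier results of these data known.

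The 9 libraries were fitted together in edgeR 4.0.16 (R 4.3.3; filterByExpr, TMM, quasi-likelihood F test, Benjamini-Hochberg over 13845 genes, adjusted p under 0.05). A run of this fit on simulated counts had a pass mark for large changes only, larger than that of any member but *EGR1*. Standard errors are the log2 fold change divided by the square root of F. Alternatives used DESeq2 1.42.0, limma 3.58.1 on log2(FPKM + 0.1), other scalings, no filter, each library left out, and the libraries with over 100 *HBB* counts left out. Exact permutation tests (SciPy 1.17.1), on log2 CPM, compared 6 treated with 3 control libraries. Named genes were the members, up to 4 called genes per list with the largest changes and the 2 genes best correlated with each member in log2 CPM, of which 1 is not reported here. *NAB2*, *ZFP36L2*, *AREG*, *KLF16*, *LDHA* and called genes beyond these were named after their values were seen. *CCN1* and *CCN2* were matched by gene ID.

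Same-numbered A and Nc libraries deviated together from their group means (correlations 0.814, 0.583 and 0.506). No label pairs them, and the source of this likeness was not tested. Same-numbered pairs with a B library had correlations of −0.595 to −0.331, so these libraries did not deviate alike. Deviations from a mean of 3 libraries depend on each other, so these values cannot tell whether the numbers pair B with A or Nc. B1, B2 and B3 deviated most like A3, A1 and A2 (correlations 0.495, 0.607 and 0.492), libraries of other numbers, and no block was built from that.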

Additional observations from a re-analysis of the deposited data

Results flagged for a closer look

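For 7 members the treated groups differed from each other in a direct test, B minus A in edgeR's fit: the log2 difference was −3.23 for *EGR1*, −1.03 for *DUSP6*, −0.98 for *IER3*, −0.78 for *IER2*, −0.76 for *ZFP36*, −0.45 for *MYC* and −0.39 for *DUSP5*. The treated groups were set against the same controls. Since the labels tie neither group to 12 h or 48 h, the order of these levels in time cannot be told from them.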

How the results depend on the processing

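Of 612 alternative log2 fold changes of the members, 546 kept their side of the threshold, 63 lost a call, 3 gained a call and 0 called values reversed. The sign was kept in 162 of 162 values for A against Nc, 151 of 153 for B against Nc, 144 of 144 for both treated groups against Nc and 148 of 153 for B against A. With 84 splits, the adjusted exact tests could hardly pass, so they say nothing about stability. *EGR1* was called in every alternative run of A against Nc (log2 fold change 2.88 to 3.06) and of B against A (−3.35 to −3.12). In A against Nc, 376 genes were called: 992 with no filter, 794 with DESeq2, 226 with limma, 244 with the replicate block on all 9 libraries, 4601 with the replicate block on A and Nc alone, 30 without the 5 libraries with *HBB* counts, and 101 (without A2) to 910 (without A1) with a library left out. Of the 8 members called, 5 were called with library totals, 7 with the replicate block on all 9 libraries, 1 without the *HBB* libraries and 3 to 8 with a library left out. In B against Nc, 1850 genes were called: 57 without the *HBB* libraries and 489 (without B3) to 2088 (without A1) with a library left out. Its 1 member, *DUSP5*, gave 0 with library totals, no filter, limma, the replicate block, the compared groups alone or without the *HBB* libraries, and 0 to 1 with a library left out. For both treated groups against Nc, 691 genes were called: 55 with library totals, 1480 with no filter, 1248 with DESeq2, 36 with limma, 13 without the *HBB* libraries, and 7 (without Nc3) to 1253 (without A1) with a library left out. Of its 3 members, 1 was called without the *HBB* libraries and 1 to 3 with a library left out. In B against A, 2498 genes were called: 460 without the *HBB* libraries and 1160 (without A3) to 3197 (without Nc1) with a library left out. Of its 7 members, 6 were called with the replicate block, 3 without the *HBB* libraries and 5 to 8 with a library left out. The fit without the *HBB* libraries holds 4 libraries, which leaves few degrees of freedom, and the cause of the other changes was not tested. The fits on A and Nc alone and without *HBB* libraries were chosen after seeing the data. Counting error was below the observed spread for each member in each group, except *DUSP5* in Nc (4.51% against 2.91%).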
